A study of Xenopus laevis with 8 samples.

Results

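The 181 genes described here had more RNA in intestines exposed to atrazine (ATR) than in the DMSO control of the same replicate number, by at least 1.3-fold in each of the 4 pairs. They were chosen on these same libraries, from 51061 genes in the deposited count table. Genes detected by 1 count or more in 4 or more of the 8 libraries entered the choice, 30702 in all. Levels are CPM, the counts of a gene relative to the size of its library, after TMM scaling, which corrects each library total for differences in composition. A mean from 2 to under 1000 CPM over the 8 libraries left 18288 genes, and 181 of these, or 0.99%, had a ratio of ATR to DMSO of at least 1.3 in every pair. The direction of change is therefore set by the choice. The sizes, abundances and spreads of these genes are given as a description, with tests shown only for orientation.

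The study compared *Xenopus laevis* embryos exposed to 35 mg/l ATR with embryos exposed to its vehicle DMSO (0 mg/l ATR), for 24 h from Nieuwkoop and Faber (NF) stage 39 to about NF 40. Each group had 4 libraries of polyadenylated RNA, and each library came from 10 pooled intestines of which the mid- and hindgut were kept. Strain, sex and clutch are not given, and no label states what a replicate number stands for. A pool averages its embryos, so the spread reported here is that between pools. In such bulk RNA, a higher level in every cell and a larger share of the cells that express a gene cannot be told apart.

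ATR is a triazine herbicide that blocks electron transport in the photosystem II of plants. At the stages sampled here the frog gut is a short tube of yolk-rich endoderm that is about to lengthen, form an epithelium and coil, and it lives on maternal yolk before feeding begins. *X. laevis* is an allotetraploid frog, so that many of its genes exist as an L and an S copy. The deposited table gives genes a running identifier, which could not be linked to gene symbols with the annotation used here. For this reason no function, copy or sequence is given for any gene, and the tissue label could not be checked against marker genes. Of the 181 genes, 2 are printed by identifier, and others are referred to by rank, which was chosen after their values were seen.

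Total counts ranged from 95497200 to 106791269 in DMSO controls and from 79887778 to 104915882 after ATR, and the ATR total was the lower one in each pair. These differences are removed by the scaling to CPM, and whether they play a part in the ratios was not tested. Few of the 181 genes rested on small numbers. The smallest of the 8 counts had a median of 622 over the genes. It was under 50 in 7 genes and under 10 in 2 genes, at 1 and 7.

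Most of the differences were moderate. The geometric mean of the 4 ratios had a median of 1.80 over the 181 genes, with quartiles of 1.55 and 2.34. Their median mean log2 ratio was 0.85, against 0.0040 over all 18288 genes in the abundance range. On the log2 scale, the mean ratio lay under 0.5 in 7 genes, from 0.5 to under 1 in 112, from 1 to under 2 in 45, and at 2 or more in 17. Every pair reached a ratio of 1.5 in 94 genes, 2 in 30, 3 in 12 and 4 in 7. The highest geometric mean among the 179 genes with at least 10 counts in every library was 11.6. It came from a gene with a mean of 0.616 CPM in controls, whose ratios were uneven, at 52.6, 3.79, 9.90 and 9.11 in pairs 1 to 4. The gene with a count of 1 in DMSO replicate 4 ranked above that gene, but its ratio in pair 4 cannot be read as a size. Its ratios in pairs 1 to 3 were 20.5, 9.83 and 18.9.

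**Figure D1:**
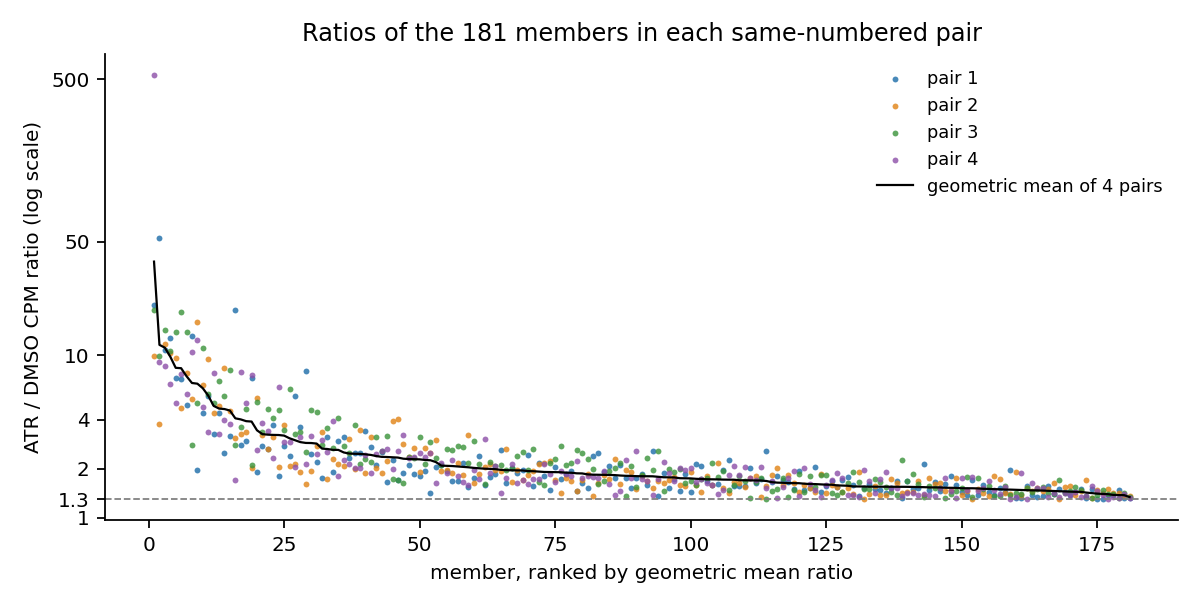
Ratio of ATR to DMSO CPM (log scale) of each of the 181 genes in the 4 same-numbered pairs (coloured points), ranked by the geometric mean of the 4 ratios (black line). The dashed line marks the limit of 1.3 that the choice imposed, the line falls steeply to a median of 1.80, and the single topmost point rests on a count of 1 in its DMSO library.

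The first printed gene, gene14419, was picked for the largest smallest-of-4 ratio among those with at least 10 counts in every library. A large change in every pair is therefore set by that pick. Its levels in DMSO replicates 1 to 4 were 13.1, 9.87, 8.66 and 18.5 CPM, and those in ATR replicates 1 to 4 were 141, 115, 124 and 158 CPM. The groups lay far apart, and the control with the highest level had the ATR partner with the highest level. The ratios of the 4 pairs were 10.8, 11.7, 14.3 and 8.54. The log2 fold change from edgeR was 3.42 (standard error 0.23, adjusted p = 0.00051), with adjusted p from 2.64e-05 to 0.00597 in edgeR under the other settings without a block. These p-values come from the contrast that chose the gene and are no separate evidence.

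The most abundant of the 181 genes in controls, gene39150, changed little but very evenly. Its levels were 506, 483, 467 and 476 CPM in DMSO replicates 1 to 4 and 670.2, 663, 662 and 662 CPM in ATR replicates 1 to 4. No control reached the lowest ATR library, and the 4 ATR libraries differed by less than the controls did, with an SD of 3.99 against 16.6 CPM. The ratios were 1.32, 1.37, 1.42 and 1.39, so that this gene lay close to the limit of the choice. Its log2 fold change of 0.46 (standard error 0.075) did not pass edgeR's test with treatment as the only term (adjusted p = 0.0782, and 0.0781 to 0.334 under the other settings without a block). With the replicate number as a block it did (adjusted p = 0.00054 from edgeR, and 0.00263 to 0.0405 without any 1 number), as it did in DESeq2 with treatment only (adjusted p = 1.75e-07). All these p-values come from the contrast that chose the gene and are no separate evidence. The block compares libraries within the same pairs that the choice used.

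**Figure D2:**
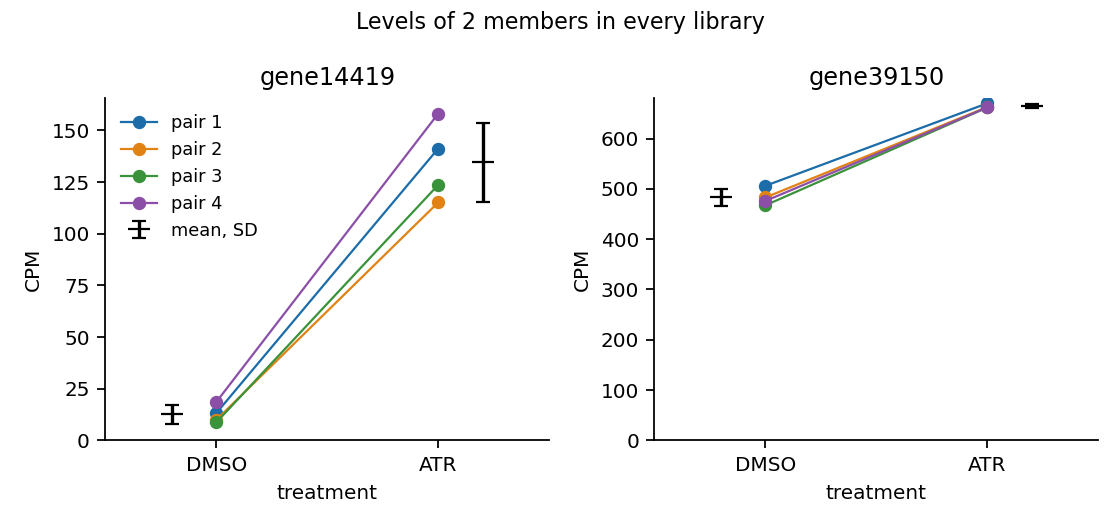
CPM of gene14419 and gene39150 in each library, with lines joining ATR and DMSO libraries of the same replicate number and black bars for the mean and SD of each group (n = 4). Both genes were higher in every ATR library than in any control, at 135 ± 19.1 against 12.5 ± 4.41 CPM and at 664 ± 3.99 against 483 ± 16.6 CPM.

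Other abundant genes differed in how their controls varied. The second most abundant gene in controls became the most abundant after ATR. It had 416, 313, 250 and 438 CPM in DMSO replicates 1 to 4 and 1823, 1530, 1733 and 1434 CPM in ATR replicates 1 to 4. Control and ATR levels of this gene did not follow each other, since replicate 4 had the highest control and the lowest ATR level, and its ratios ran from 3.27 to 6.93. This gene alone made up 25.2% of the summed rise in CPM of the 181 genes. Its mean over the 8 libraries was 992 CPM, just under the upper limit of 1000 CPM.

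In the fourth most abundant gene the groups overlapped. Its controls had 242, 182, 136 and 228 CPM and its ATR libraries 331, 350, 227 and 307 CPM in replicates 1 to 4. ATR replicate 3 was thus below the controls of replicates 1 and 4, although each pair had a ratio of at least 1.34. For this gene the adjusted p from edgeR was 0.503 without the block and 0.00014 with it. The choice required a rise within each pair, which is what the block compares, so the lower value is no separate evidence. The fifth most abundant gene varied still more, from 55.3 to 282 CPM among controls and from 429 to 924 CPM after ATR. Its replicate 1 libraries were the highest of both groups and its replicate 4 libraries the lowest, and its ratios ran from 3.27 to 7.76.

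Of the 7 genes with a ratio of at least 4 in every pair, 3 shared a low control level in replicate 3. They had 14.4, 20.2 and 11.4 CPM there, and from 32.4 to 61.6 CPM in the other controls. Their ratio in pair 3 was the highest of the 4, at 13.9, 13.8 and 11.1, while the other pairs gave from 4.40 to 9.56. After ATR they had from 126 to 355 CPM, with the lowest level again in replicate 3. Another of the 7 genes had 6.16, 2.72, 1.66 and 1.47 CPM in DMSO replicates 1 to 4 and 78.7, 28.0, 17.5 and 9.71 CPM in ATR replicates 1 to 4. The controls of this gene stood in the same order as their ATR partners, and its adjusted p from edgeR was 0.147 without the block and 3.97e-12 with it. Here too the choice favours the lower value with the block.

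The same contrast that chose the genes was also fitted over all 30702 genes with edgeR's quasi-likelihood test. With treatment as the only term it called 19 genes upregulated at an adjusted p under 0.05, which is 0.0619% of the genes tested, and all 19 were among the 181. The number of genes called among the 181 fell to 3 without DMSO replicate 2 and to 10 without DMSO replicate 4. It fell to 9, 7, 11 and 8 without ATR replicates 1 to 4, and was 16 and 14 without DMSO replicates 1 and 3. Over all genes tested, the same fits called from 3 to 17 genes, so the fall was not particular to the 181. With the replicate number as a block, 166 of the 181 were called, beside 1.56% of all genes tested. DESeq2 with treatment only called 110, beside 0.659% of the genes to which it gave an adjusted p. These counts follow from the choice and are no separate evidence.

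The 15 genes that the blocked fit did not call had from 1.38 to 9.13 CPM in controls. Their median was 2.65 CPM against 9.74 CPM in the 166 called, with a median ratio of 1.56 against 1.81, and adjusted p from 0.0503 to 0.258 in edgeR. Conversely, the 181 made up 34.6% of the 480 genes that the blocked fit called upregulated. Of the other 314, 300 lay in the abundance range but had a ratio under 1.3 in at least 1 pair, 12 had a mean under 2 CPM and 2 had a mean of at least 1000 CPM.

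In 123 of the 181 genes every ATR library lay above every control. Over the 18288 genes of the same abundance range this held for 3.1%, and the choice itself favours it. In the other 58 genes the groups overlapped even though each ATR library exceeded its own control by the limit. These 58 had a median ratio of 1.72, close to the 1.84 of the 123. They were less abundant in controls, at a median of 5.30 against 10.3 CPM, and 46.6% of them differed by at least 2-fold between the highest and lowest control, against 25.2% of the 123. Overlap depends on how widely the controls spread, so this last difference is built into the split. The blocked edgeR fit called 47 of the 58, beside 1.56% of all genes tested. The choice required a rise within each pair, which favours such calls, so this count is no separate evidence.

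The choice was also repeated with each replicate number left out in turn. The same limits were applied to the other 3 pairs, and the ratio was read in the pair left out, which then had no part in choosing the genes but had been seen when the limits were set. The choice then held 250, 254, 237 and 274 genes for pairs 1 to 4. In the pair left out, 71.2%, 70.9%, 76.8% and 63.9% of these genes had a ratio of at least 1.3. Among all genes of the abundance range, 11.1%, 10.8%, 7.90% and 9.57% did so in the same pairs. A ratio above 1 was found for 90.1% to 93.7% of the chosen genes, against 49.4% to 55.0% of all genes in the range. At most 9 chosen genes, in pair 2, were lower by the same factor of 1.3. Of the 178, 180, 182 and 175 genes that reached 1.3 in the left-out pairs, 177, 179, 180 and 174 are among the 181, so these shares describe the same genes and are not a set of new ones. A gene that met the limits on 3 pairs and reached 1.3 in the pair left out was nearly always one of the 181. The shares are thus no separate evidence for the 181. TMM factors were computed on all 8 libraries, and genes are not independent of each other, so the shares carry no p.

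**Figure D3:**
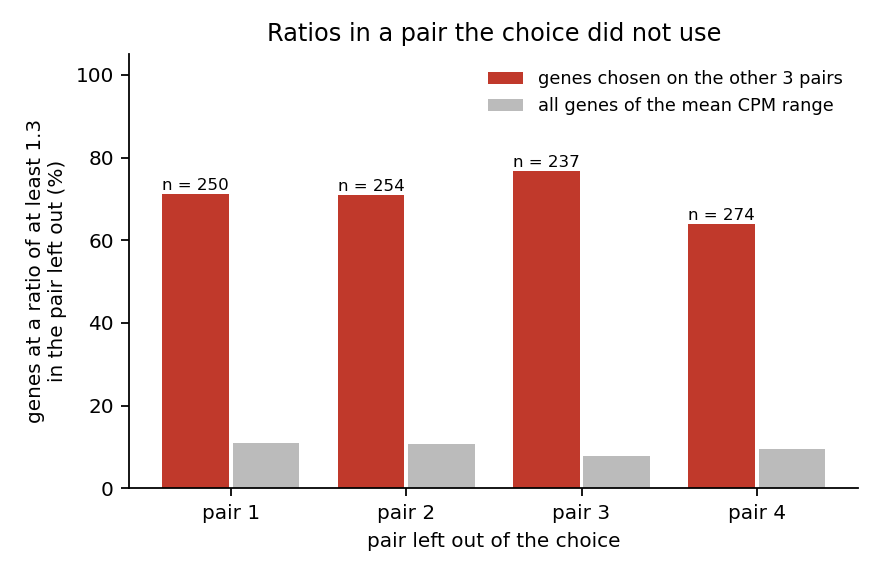
Share of genes with a ratio of ATR to DMSO of at least 1.3 in the pair named below each bar, for genes chosen at that limit on the other 3 pairs (red, with their number n) and for all genes of the same abundance range (grey). The red bars lie between 63.9% and 76.8% and the grey bars between 7.90% and 11.1%.

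The size of the change was smaller in the pair left out than in the pairs used for choosing. Only the choosing pairs had to reach 1.3, so a smaller size in the left-out pair is built into the choice. The median ratio was 1.56, 1.55, 1.64 and 1.46 in left-out pairs 1 to 4, whereas the 3 choosing pairs had medians of 1.67, 1.69, 1.71 and 1.64. As a description of these same genes, the share that reached 1.3 went with the size in the choosing pairs. Where the smallest of the 3 choosing ratios was under 1.5, between 47.4% and 65.3% of genes reached 1.3 in the left-out pair. Where it was at least 2, between 91.2% and 97.4% did, with 32 to 40 genes in each pair. At a mean of 10 CPM or more, 68.5% to 86.7% of the chosen genes reached 1.3, against 5.09% to 9.07% of all genes of that abundance. From 2 to under 10 CPM, 58.4% to 67.7% did so, against 12.6% to 17.2%.

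The limits themselves cut through a continuous range of values. Just inside, the smallest ratios were 1.3006, 1.3007 and 1.304, and just outside they were 1.2994, 1.2990 and 1.2987. The smallest ratio was under 1.35 in 30 of the 181 genes, and a further 58 genes of the abundance range had a smallest ratio from 1.25 to under 1.3. The lowest mean inside the range was 2.01 CPM and the highest mean below it, among genes that met the ratio in all pairs, was 1.91 CPM. Below 2 CPM a further 241 genes met the ratio. A pair with no counts in its control but some after ATR would also meet it, so this number cannot be set beside the 181. The highest mean inside was 992 CPM and none of the genes at 1000 CPM or more met the ratio in all 4 pairs.

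The 181 genes spanned a wide range of abundance. In controls their mean level ran from 0.411 to 483 CPM with a median of 8.46 CPM, against a median of 15.0 CPM for all genes of the range. After ATR the median was 14.4 CPM. A mean of under 2 CPM in controls was found for 25 of them, which entered the range only through their higher level after ATR. By mean level in controls, 67 genes lay under 5 CPM, 70 from 5 to under 20, 38 from 20 to under 100, and 6 at 100 CPM or more. These made up 1.96%, 0.949%, 0.616% and 0.450% of the genes of the range in the same classes. The median ratio was 1.97, 1.69, 1.70 and 1.66 in these 4 classes. Classes by the mean over the 8 libraries ran from 2 to under 5, 5 to under 20, 20 to under 100 and 100 to under 1000 CPM. In these the shares were 1.29%, 1.04%, 0.796% and 0.810%, and the median ratios 1.96, 1.71, 1.74 and 2.47, the last from 11 genes. Across the 181 genes, the level in controls and the size of the change were weakly and inversely related (Spearman's rho = -0.30, Pearson's r = -0.25 on log2 values). Both measures contain the control level, and a gene with low controls needed a larger change to enter, so the relation is only descriptive. With the mean over the 8 libraries in place of the control level, Spearman's rho was -0.15.

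**Figure D4:**
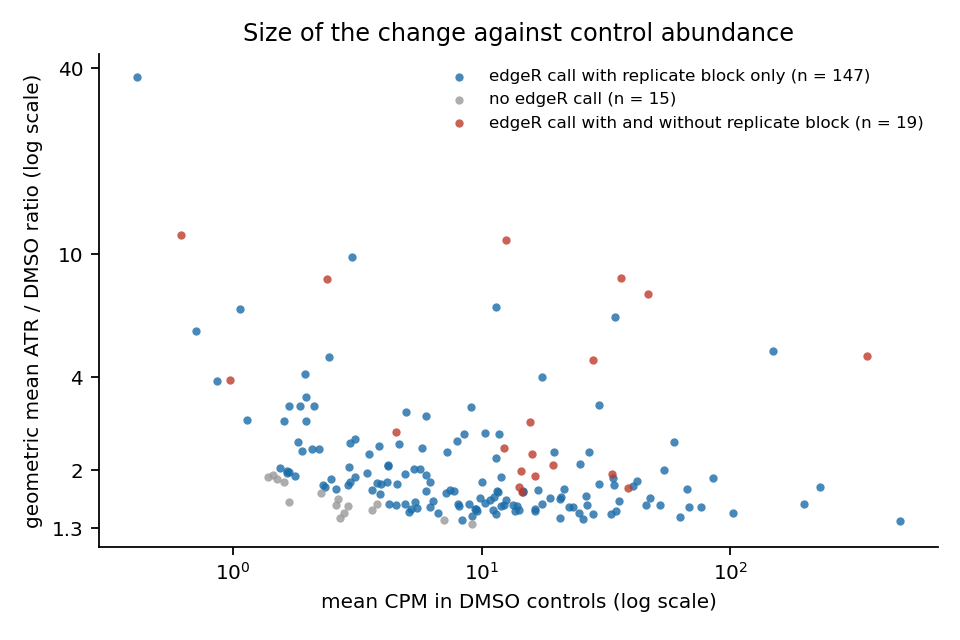
Geometric mean ratio of ATR to DMSO (log scale) against mean CPM in DMSO controls (log scale) for the 181 genes, coloured by the calls of edgeR. The 15 genes without a call (grey) lie between 1.38 and 9.13 CPM in controls and have ratios from 1.34 to 1.93, and the 19 called with and without the block (red) range from 0.616 to 354 CPM in controls.

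Together the 181 genes took a small part of each library. Their summed level was 4569, 3768, 3387 and 3931 CPM in DMSO replicates 1 to 4 and 10089, 8834, 8492 and 8486 CPM in ATR replicates 1 to 4. The sum was thus 3914 ± 493 CPM (SD, n = 4) in controls and 8975 ± 760.2 CPM (SD, n = 4) after ATR, with ratios of 2.21, 2.34, 2.51 and 2.16 in pairs 1 to 4. A few abundant genes carried much of this rise, with 48.5% of it in 5 genes and 72.4% in 20. Without the gene that rose most in CPM, the ratios of the sum were 1.99, 2.11, 2.15 and 2.02.

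The pairs differed little in the typical size of the change. The median ratio was 1.75 in pairs 1 and 2, 1.87 in pair 3 and 1.76 in pair 4. Pair 3 held the highest ratio of the 4 in 59 genes and the lowest in 26, whereas pair 1 held the highest in 37 and the lowest in 57. Within a gene, the largest ratio exceeded the smallest by a median factor of 1.41. This factor was under 1.5 in 104 genes, at least 2 in 30 and at least 3 in 10. The SD of the 4 log2 ratios had a median of 0.23, close to the 0.21 of all genes in the range. In the 4 classes of control level, from the lowest to the highest, it was 0.33 against 0.42, 0.20 against 0.24, 0.17 against 0.15 and 0.21 against 0.14 in the range. Genes with a larger mean log2 ratio had a larger SD, with Spearman's rho = 0.76 across the 181 genes. The choice set a lower limit on every ratio and no upper limit, so a gene with a mean near the limit cannot have a large SD. This relation is therefore in part built into the choice. The order of the genes by size was similar in all pairs, with Spearman's rho from 0.59 to 0.68 between pairs across the 181 genes, against 0.14 to 0.38 across the range. All pairs share the choice, and genes are not independent replicates.

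The controls of these genes varied widely among themselves. The highest control exceeded the lowest by a median factor of 1.67, against 1.37 over the abundance range, and by at least 2-fold in 58 genes, or 32.0%, against 14.6%. Within the classes of control level the medians were 1.99 against 1.79, 1.51 against 1.40, 1.51 against 1.25 and 1.68 against 1.24 from the lowest class to the highest. After ATR the factor was 1.60 against 1.41, and 21.5% against 15.8% differed by at least 2-fold. The 4 ratios spread less than the 4 control levels in 138 genes, or 76.2%, against 48.2% of the range. The choice set a lower limit on each ratio and no upper limit. A gene with widely spread controls meets that limit in all 4 pairs more readily when its ATR levels follow them. The choice can therefore favour this measure, and how far it does so was not tested. No test was made of these differences, because the control levels are part of the ratios that chose the genes.

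Replicate 1 often held the highest levels in both groups. DMSO replicate 1 was the highest control in 71 of the 181 genes, or 39.2%, against 28.8% of the range, and the lowest in 12.7% against 26.2%. ATR replicate 1 was the highest ATR library in 76 genes, or 42.0%, against 27.3%. In 50 genes, or 27.6%, both replicate 1 libraries were the highest of their group, against 13.7% of the range. Libraries of the same number were highest in both groups in 59.7% of the 181 genes and in 47.2% of all genes in the range. The choice compared libraries of the same number, so it can favour genes whose ATR levels follow their controls. These shares come from the levels that chose the genes and are only descriptive.

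**Figure D5:**
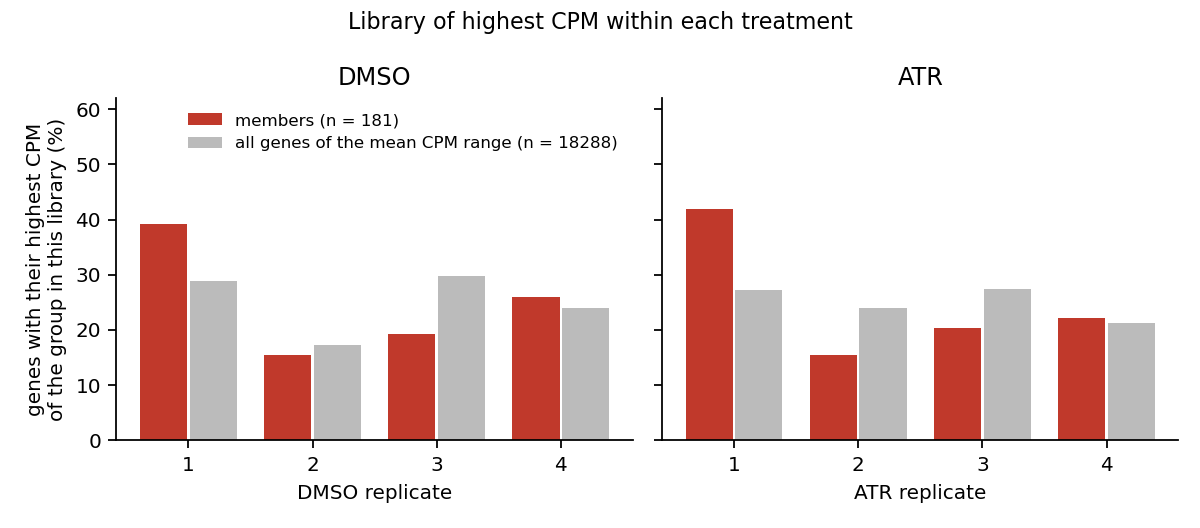
Share of genes whose highest CPM within DMSO controls (left) or within ATR libraries (right) was found in each replicate, for the 181 genes (red) and for all 18288 genes of the abundance range (grey). Replicate 1 was highest for 39.2% and 42.0% of the 181 genes, above the 28.8% and 27.3% of the range. The same levels were used to choose the 181 genes.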

How the data were processed

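Reads were trimmed and mapped by the authors with STAR against the *X. laevis* reference, and unique alignments were counted per gene by htseq-count. The deposited values were taken as these raw counts, with no normalization. Every library total exceeds the average number of paired-end reads per replicate that the paper gives, and no source used here explains this. No source used here gives versions of those tools. Groups and replicate numbers came from the sample labels, and no 2 libraries held identical values.

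Counts were converted to CPM with the TMM factors of edgeR 4.0.16 (R 4.3.3), over genes detected by 1 count or more in 4 or more libraries. Treatment was tested over all of these genes with edgeR's quasi-likelihood test and Benjamini-Hochberg adjustment (threshold 0.05). Treatment was the only term, as in the study's methods, which used DESeq2 and not edgeR. Standard errors were obtained as log2 fold change over the root of the F statistic. DESeq2 1.42.0, its size factors, the replicate number as a block, other limits, and leaving out libraries or numbers were alternatives.

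Whether replicate numbers pair the libraries was checked by correlating each library's departure from its group mean, on log2 CPM with a prior count of 2. Same-numbered libraries correlated at 0.299, 0.211, 0.408 and 0.278 across genes and others at -0.211 to 0.0527, so the numbers were taken as pairs. Departures from a group mean cancel out within each group, so positive values for same-numbered libraries push the others down. These values are therefore not independent of each other.

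The genes and the limits that define them were chosen with earlier results of these data known. The identifiers printed are the gene with the largest smallest-of-4 ratio among those with at least 10 counts in every library and the most abundant in controls. Labels do not say whether pools come from separate clutches, so p-values without the block measure the spread between these pools. Those with the block measure the spread of the differences between pools of the same number.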

Additional observations from a re-analysis of the deposited data

Results flagged for a closer look

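Of 10 groups of 4 values, 3 held a value that stood apart from the others by Dixon's test, where chance gives 5% for a single group. The groups come from the same 8 libraries and some from the chosen genes, so the number flagged is only descriptive. The total count of ATR replicate 2 was 104915882, and those of the other ATR libraries lay between 79887778 and 83727156. The level of gene39150 in ATR replicate 1 was 670.2 CPM, while the other ATR libraries lay between 662 and 663 CPM. The median log2 ratio of the 181 genes was 0.90 in pair 3 and from 0.81 to 0.82 in the other pairs. These medians come from the ratios that chose the genes.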

How the results depend on the processing

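The choice of 181 genes depended most on its own limits. A ratio minimum of 1.2 gave 323 genes and one of 1.5 gave 94, and leaving out 1 replicate number gave 237 to 274. DESeq2's size factors gave 187 genes, of which 180 were among the 181, and total counts without TMM factors gave 144, of which 140 were. The median mean log2 ratio of the 181 genes was 0.85, and 0.79 with total counts, which shifted the median over all genes by -0.055. Without 1 replicate number it was 0.82 to 0.87.

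The 19 genes called upregulated by edgeR, all among the 181, became 29 of 29 without the filter on low counts. They became 480 with the replicate block, 166 of them among the 181, and 155 with DESeq2, 110 of them among the 181. Without 1 library edgeR called 3 to 17 genes, and 3 to 16 among the 181. With the block and without replicates 1 to 4 in turn, a setting chosen after seeing the data, it called 231, 248, 174 and 460, of which 135, 143, 130 and 149 were among the 181. The block ended no call made without it.

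For genes chosen on 3 pairs, the share at 1.3 in left-out pairs 1 to 4 was 52.4%, 59.0%, 59.0% and 46.6% when the choice was made at 1.2, and 86.8%, 87.7%, 88.2% and 85.6% when it was made at 1.5. With a mean of at least 10 CPM, a limit chosen after seeing the data, it was 75.0%, 83.2%, 86.7% and 68.5%. The 123 genes with no overlap between groups became 124 with DESeq2's size factors and 113 with total counts.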
